A study of Rattus norvegicus with 2 samples.

Results

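The 9 genes described here encode the subunits of the transcription factor AP-1 and its close relatives: Fos, Fosb, Fosl1 and Fosl2 of the FOS family, Jun, Junb and Jund of the JUN family, and Atf3 and Jdp2. Their probes were found by gene name on an Agilent rat array, on which 13062 genes could be measured in both samples. All 9 were found, read by 14 probes and 25 spots. IEC6, a non-transformed epithelial cell line from rat small intestine, was given Na2S3 (sodium trisulfide, an inorganic polysulfide) for 60 min, or water for 60 min as the control. Cells grew on dishes in medium with serum and were treated in medium with little serum, per the labels' protocols. The labels give the dose as 100 µM in the sample characteristics and the design, but as 100 mM in the treatment protocol, and this was not settled. Each group is 1 array from 1 sample, so no difference has a replicate check and no p-value is given. "Higher" and "lower" describe these arrays only.

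AP-1 is a dimer of basic leucine zipper (bZIP) proteins, in which the zipper holds the subunits together and the basic region touches DNA. JUN proteins pair with each other or with FOS proteins, whereas FOS proteins need a partner, and ATF3 and JDP2 pair with JUN proteins and often act as repressors. Several of these genes are immediate early genes, switched on by growth factor and stress kinases without new protein synthesis, and the transcripts of Fos and Fosb are known to be short-lived. In gut epithelium AP-1 is known for its part in proliferation, migration and the answer to injury.

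Atf3, Fosl1 and Junb, 3 of the 9 members, were higher by 2-fold or more in the Na2S3 array, 0 were lower by that much and 6 lay within 2-fold. Over the 13062 genes, 0.942% passed 2-fold upwards and 0.62% downwards. The median log2 ratio of the members was 0.46, beside -0.04 over all measured genes. 8 of the 9 members had a positive ratio, against 43.4% of all genes. The 8 include Jund, whose ratio of 0.08 was smaller than its spot error of 0.11. The share over all genes depends on the scaling, since their median was 0.01 with quantile normalization. The set was chosen with earlier results of these data known, so these counts and medians describe it and do not set it apart from other genes. Each family held 1 member that stood far above its relatives: Fosl1 among the FOS genes, Junb among the JUN genes and Atf3 of the remaining pair.

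All 25 spots were well above background on both arrays by the scanner software's flag, and 0 were saturated or marked as outliers. Signals below are processed intensities. Those of the Na2S3 array were divided by 1.155, the ratio of the arrays' 75th percentiles over non-control probes (478 and 413), so that both arrays stand on the scale of the water array. The spot error of a log2 ratio was taken from how far repeat spots of comparable brightness differ. It covers spot noise alone and says nothing about variation between cultures.

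**Figure D1:**
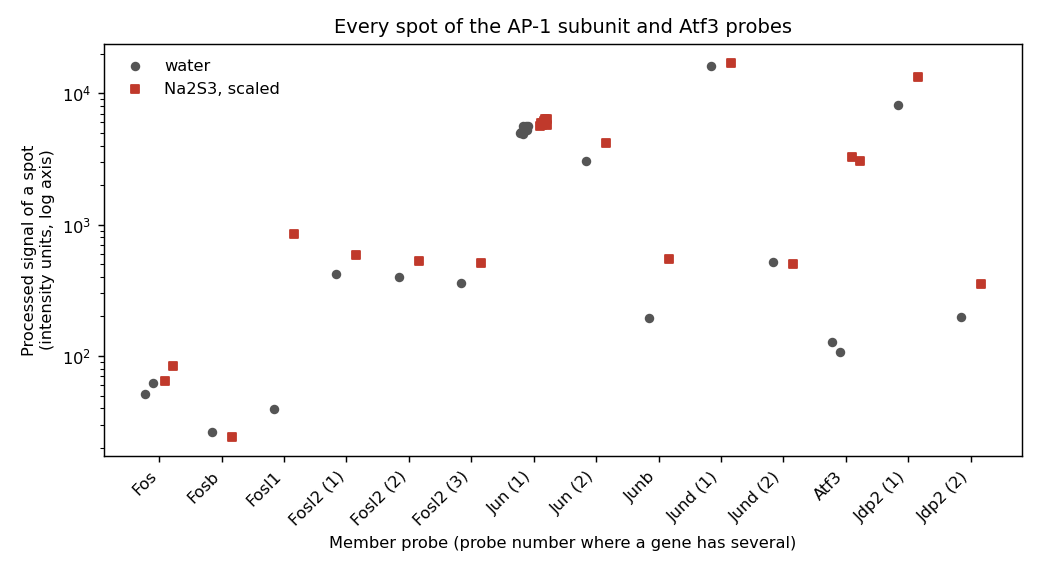
Processed signal of each spot (intensity units, log axis) for the 14 member probes, with the water array as grey circles and the scaled Na2S3 array as red squares. Atf3, Fosl1 and Junb show the wide gaps, while the Na2S3 spot of Fosb lies under its water spot and the 10 spots of the first Jun probe form adjoining groups.

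Among the FOS genes, Fosl1, which encodes FRA-1, a FOS protein without a strong activation domain of its own, was read by 1 spot, with a signal of 39.7 in the water array and 846 in the Na2S3 array. The Na2S3 array was high and the water array was close to the dim end of detection, where the lowest signal counted as above background was 18.3. The log2 ratio was 4.41 with a spot error of 0.23, which is 21.3-fold. With normexp background correction, which pulls dim signals together, it was 3.04, or 8.21-fold. The probe lies on chromosome 1 from base 208099035 to 208099094 (plus strand, build rn4, as the files give it) and begins at base 1579 of the transcript. Whether the probes lie in coding or untranslated exons was not analysed here.

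Fosl2, which encodes FRA-2, was read by 3 probes of 1 spot each. They gave 423, 398 and 362 in the water array and 583, 533 and 515 in the Na2S3 array. The log2 ratios were 0.46, 0.42 and 0.51, with spot errors of 0.13 each, so every probe was higher in the Na2S3 array and none reached 2-fold. The first 2 of these probes have the same sequence and are in effect repeat spots. With those 2 taken as 1 probe, a choice made after the data were seen, the mean was 0.47. The files give no genome position for the Fosl2 probes.

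Fos, the founding member of the family, was read by 2 spots of 1 probe. The water array gave 51.7 and 62.1 and the Na2S3 array 65.0 and 83.5, so the Na2S3 spots were the higher pair and did not overlap the water spots. The log2 ratio was 0.38 with a spot error of 0.18, and it was 0.09 with normexp. The probe lies on chromosome 6 at 109561941 to 109562000 (rn4).

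Fosb, whose product resembles FOS and can also be made in a shortened form, had a signal near the limit of detection on both arrays. Its 1 spot gave 26.6 in the water array and 24.0 in the Na2S3 array. The log2 ratio of -0.15 was smaller than its spot error of 0.30, so no difference was detectable for Fosb at this signal. Its probe lies on chromosome 1 at 78666646 to 78666705 (rn4). At the 1 time point measured, the FOS family thus ran from -0.15 for Fosb to 4.41 for Fosl1.

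The promoter of Fosl1 is printed because this gene had the largest ratio among the 6 members with a RefSeq promoter entry (Fosb, Fosl1, Fosl2, Junb, Jund and Jdp2). The window runs from 250 bases before to 50 bases after the start of the gene, at chr1:212183635-212183934 on the plus strand of GRCr8. Capitals mark matches to the motifs described further on, here a single GC box.
Fosl1: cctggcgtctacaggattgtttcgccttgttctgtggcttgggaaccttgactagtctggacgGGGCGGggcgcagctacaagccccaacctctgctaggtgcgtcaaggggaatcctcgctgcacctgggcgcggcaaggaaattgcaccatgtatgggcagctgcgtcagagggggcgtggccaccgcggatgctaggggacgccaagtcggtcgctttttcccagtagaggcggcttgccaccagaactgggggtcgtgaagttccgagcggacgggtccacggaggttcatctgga

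Among the JUN genes, Junb, which encodes a JUN protein that is a weaker activator than JUN and often restrains it, was read by 1 spot. Its signal was 195 in the water array and 552 in the Na2S3 array. The log2 ratio was 1.50 with a spot error of 0.15, or 2.83-fold, and it was 1.27 with normexp. The probe lies on chromosome 19 at 24832781 to 24832840 (rn4). The value of Junb rests on this probe alone. The probe is shown because, read from its first base, it has no stop codon before its last codon, which is a stop codon and is in capitals. How often this occurs over all probes was not counted.
Junb probe: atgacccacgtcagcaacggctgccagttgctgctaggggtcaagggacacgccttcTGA

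Jun, the founding gene of the family and the usual partner of FOS proteins, was measured most precisely. Its first probe was spotted 10 times. In the water array the lowest, median and highest spots were 4881, 5253 and 5660, and in the Na2S3 array they were 5599.9, 5932 and 6330.3. All but 1 of the Na2S3 spots (9 of 10) were above the highest water spot, so the groups of spots overlapped only at their edge. Every one of the 10 spot positions had a positive log2 ratio, from 0.07 to 0.26, and the probe's ratio was 0.18 with a spot error of 0.04, or 1.13-fold. The second probe, with 1 spot, went from 3055 to 4197, a log2 ratio of 0.46. The 2 probes differed by 0.28, beside an SD of 0.24 between probes for 1 gene (3181 genes). Both probes lie on chromosome 5, the first at 115358764 to 115358823 and the second at 115359410 to 115359469 (rn4). Both were higher in the Na2S3 array, and neither was near 2-fold.

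Jund, the JUN family gene known for steady expression in resting cells, had the smallest difference of the family. Its first probe gave 16174 in the water array and 17106 in the Na2S3 array, and its second gave 519 and 506. The log2 ratios were 0.08 and -0.04, each smaller than its spot error (0.11 and 0.13). The probes differ in sign, so no direction was settled for Jund. The first probe lies on chromosome 16 at 19239707 to 19239766 and the second at 19240333 to 19240392 (rn4).

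The promoters of Junb and Jund are set side by side because the genes are relatives with unlike ratios. In GRCr8 they lie at chr19:40080876-40081175 on the plus strand and at chr16:18769722-18770021 on the minus strand. Capitals mark a CCAAT box and a TATA box in Junb, and in Jund a cyclic AMP response element (CRE), a short CRE apart from it, a CCAAT box and 3 GC boxes.
Junb: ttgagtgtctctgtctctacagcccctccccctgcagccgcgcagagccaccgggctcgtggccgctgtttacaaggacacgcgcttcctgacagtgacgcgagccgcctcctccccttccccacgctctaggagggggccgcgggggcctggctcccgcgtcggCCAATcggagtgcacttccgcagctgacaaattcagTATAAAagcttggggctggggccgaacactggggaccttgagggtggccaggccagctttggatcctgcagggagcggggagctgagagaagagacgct
Jund: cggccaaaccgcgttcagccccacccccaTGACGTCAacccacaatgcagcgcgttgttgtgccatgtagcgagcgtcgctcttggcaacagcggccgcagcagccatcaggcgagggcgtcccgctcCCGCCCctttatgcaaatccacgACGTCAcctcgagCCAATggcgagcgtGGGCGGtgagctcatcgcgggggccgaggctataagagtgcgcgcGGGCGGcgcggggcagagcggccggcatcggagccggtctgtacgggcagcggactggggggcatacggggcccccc

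Atf3, a stress-induced gene whose product represses or activates depending on its partner, had the highest log2 ratio of all 13062 genes. Its 2 spots gave 128 and 108 in the water array and 3265 and 3056 in the Na2S3 array. Both Na2S3 spots were far above both water spots. The log2 ratio was 4.75 with a spot error of 0.13, or 26.9-fold, and the 2 spot positions gave 4.67 and 4.82. With normexp it was 4.15, or 17.7-fold. The probe lies on chromosome 13 at 107191582 to 107191614 (rn4), a span of 33 bases for a probe of 60.

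Jdp2, the Jun dimerization protein, which is built like ATF3 and represses AP-1 sites, had the highest ratio of the members within 2-fold. Its probes went from 8212 to 13281 and from 198 to 356, and both were higher in the Na2S3 array. The log2 ratios were 0.69 and 0.85, with spot errors of 0.11 and 0.15. With normexp they were 0.65 and 0.67, so neither probe passed 2-fold either way. The first probe lies on chromosome 6 at 109741062 to 109741121 and the second at 109740076 to 109740135 (rn4), beginning at base 581 of the transcript.

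The Jdp2 promoter is shown because its window holds a short CRE and a C/EBP-ATF response element (CARE). It lies at chr6:110993341-110993640 on the plus strand of GRCr8, and its GC box is in capitals too.
Jdp2: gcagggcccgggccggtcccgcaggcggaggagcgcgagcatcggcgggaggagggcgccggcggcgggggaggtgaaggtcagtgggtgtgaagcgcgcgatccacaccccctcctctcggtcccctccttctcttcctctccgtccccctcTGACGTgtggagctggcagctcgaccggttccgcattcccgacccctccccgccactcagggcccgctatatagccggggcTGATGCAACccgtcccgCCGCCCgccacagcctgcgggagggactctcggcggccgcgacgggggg

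The second probes of Jund and Jdp2 hold the codon spacing of the leucine zipper, which gives the protein class its name. In a reading frame without a stop codon, each has 3 leucine codons (in capitals) exactly 7 codons apart. Of all 45598 probes, 448 (0.982%) have such a series, and of the 14 member probes these 2 do. They are shown because this spacing can be read in them. Whether they lie in the zipper itself was not analysed here.
Jund second probe: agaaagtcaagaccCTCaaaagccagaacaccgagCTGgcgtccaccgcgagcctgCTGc
Jdp2 second probe: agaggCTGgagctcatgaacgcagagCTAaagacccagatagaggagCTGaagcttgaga

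**Figure D2:**
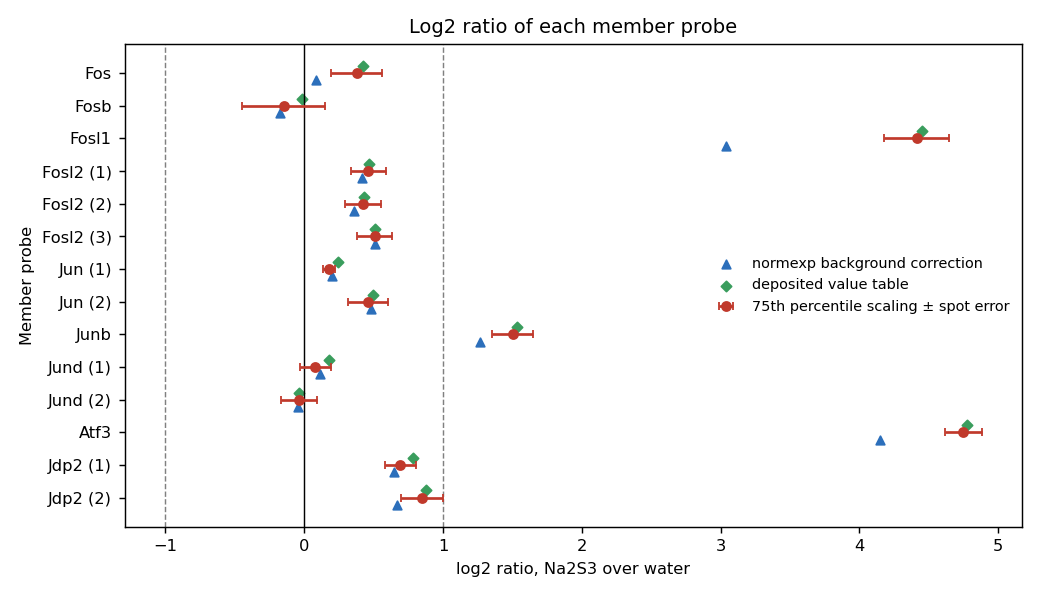
Log2 ratio of the Na2S3 array over the water array for each member probe. Red points with bars are the ratio and 1 spot error, blue triangles the ratio with normexp, green diamonds that of the deposited value table, and dashed lines 2-fold. Atf3, Fosl1 and Junb lie beyond 2-fold by each of the 3 methods, and the other probes lie between the dashed lines.

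In order of log2 ratio the members ran Atf3 (4.75), Fosl1 (4.41), Junb (1.50), Jdp2 (0.69), Fosl2 (0.46), Fos (0.38), Jun (0.18), Jund (0.08) and Fosb (-0.15), each by its brightest probe. The gap between Fosl1 and Junb was 2.91, 10.5 times their combined spot error. The gap between Junb and Jdp2 was 0.81, 4.33 times that error. Every other pair of neighbours was separated by at most 1.35 times its combined spot error, so the order of Atf3 and Fosl1, and the order from Jdp2 down to Fosb, is not settled neighbour by neighbour.

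Among the 13062 genes, Atf3 ranked 1, Fosl1 3, Junb 45 and Jdp2 262. Fosl2 ranked 624, Fos 867, Jun 2409, Jund 3945 and Fosb 9043. With 2 arrays, likeness of pattern comes down to the difference in log2 ratio. The genes next to Atf3 and Fosl1 were Trib3, a stress-induced pseudokinase gene, which stood between them at 4.54, and Akr1d1, a steroid reductase gene, below Fosl1 at 3.88. The genes next to Junb were Areg, the gene of the EGF receptor ligand amphiregulin, which was 0.01 above it, and Cxcl1, a chemokine gene, which was 0.02 below it.

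**Figure D3:**
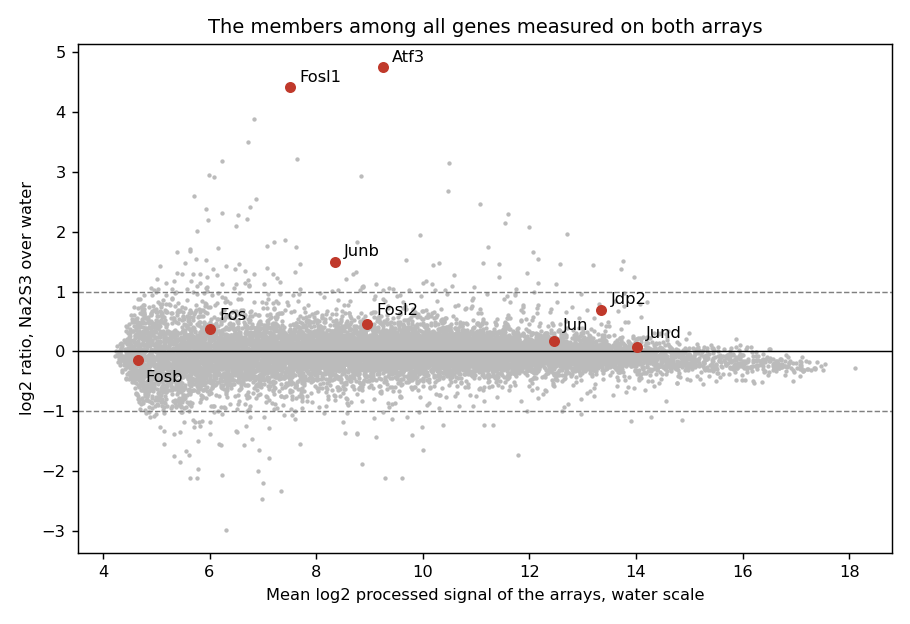
Log2 ratio against the mean log2 signal of the arrays for the 13062 genes measured on both (grey), with the 9 members in red and dashed lines at 2-fold. Atf3 and Fosl1 lie at the top of the plot, Junb above the upper dashed line, and the other members between the dashed lines.

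The genes of bZIP proteins that can share dimers or DNA sites with AP-1 were also higher in part. Of 30 genes on that list 25 were measured, of which 5 passed 2-fold upwards and 0 downwards, with a median log2 ratio of 0.31. Over all measured genes 0.942% passed upwards and 0.62% downwards, and the median was -0.04. This list was drawn up with earlier results of these data known, so its count is a description only. Maff, a small MAF gene, had the largest ratio at 1.95, with a signal of 501 in the water array and 1933 in the Na2S3 array. The other small MAF genes, Mafk and Mafg, had 1.16 and 1.12. Ddit3, which encodes the stress factor CHOP, had 1.45, and Nfil3, a repressor gene, had 1.39. With normexp Mafk stood at 0.81 and Nfil3 at 0.95, which left 3 of the list past 2-fold. Mafg was named after its value was seen.

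Several genes known as AP-1 targets were higher in the Na2S3 array. Of 30 listed 21 were measured, of which 9 passed 2-fold upwards and 0 downwards, and the median log2 ratio was 0.77. Over all measured genes 0.942% passed upwards and 0.62% downwards, and the median was -0.04. The growth factor gene Vegfa went from 485 to 4298 (3.15) and Ptgs2, the inducible cyclooxygenase gene, from 558 to 3577 (2.68). Dusp5, which encodes a nuclear phosphatase of the kinase ERK, went from 46.8 to 249 (2.41, and 1.47 with normexp), and Areg from 8206 to 23411 (1.51). With normexp 7 of the 21 passed 2-fold and the median was 0.49. The matrix protease genes Mmp3, Mmp9 and Mmp10, classical AP-1 targets, were not well above background on the water or the Na2S3 array, nor were Plau and Il6. The list was drawn up with earlier results of these data known, so its count is a description only. Most of these genes also answer to other transcription factors.

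Of 32 kinase and transcription factor genes upstream of AP-1, 28 were measured, of which 0 passed 2-fold in either direction, and the median log2 ratio was 0.05. Over all genes only 0.942% passed upwards and 0.62% downwards, so a count of 0 in a list of this size, or in the shorter one that follows, is near the background. Srf, the gene of serum response factor, which drives Fos and Junb, had 0.57, and Map2k6, a kinase gene of the p38 pathway, had 0.69 (0.38 with normexp). Map3k8 had -0.91, from a dim probe (92.2 in the water array and 49.0 in the Na2S3 array) with a spot error of 0.26. With normexp it stood at -0.54. Mapk13, a p38 kinase gene, had -0.54 (-0.43 with normexp). Of 15 genes for AP-1 turnover and cofactors, 14 were measured, with 0 past 2-fold either way and a median of 0.04. In that list Det1 had 0.39, Nfatc4 0.27, Cop1, a ubiquitin ligase gene that acts on JUN, -0.22, and Cops5 -0.20. Transcript levels say nothing about the kinases' activity, which was not measured.

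**Figure D4:**
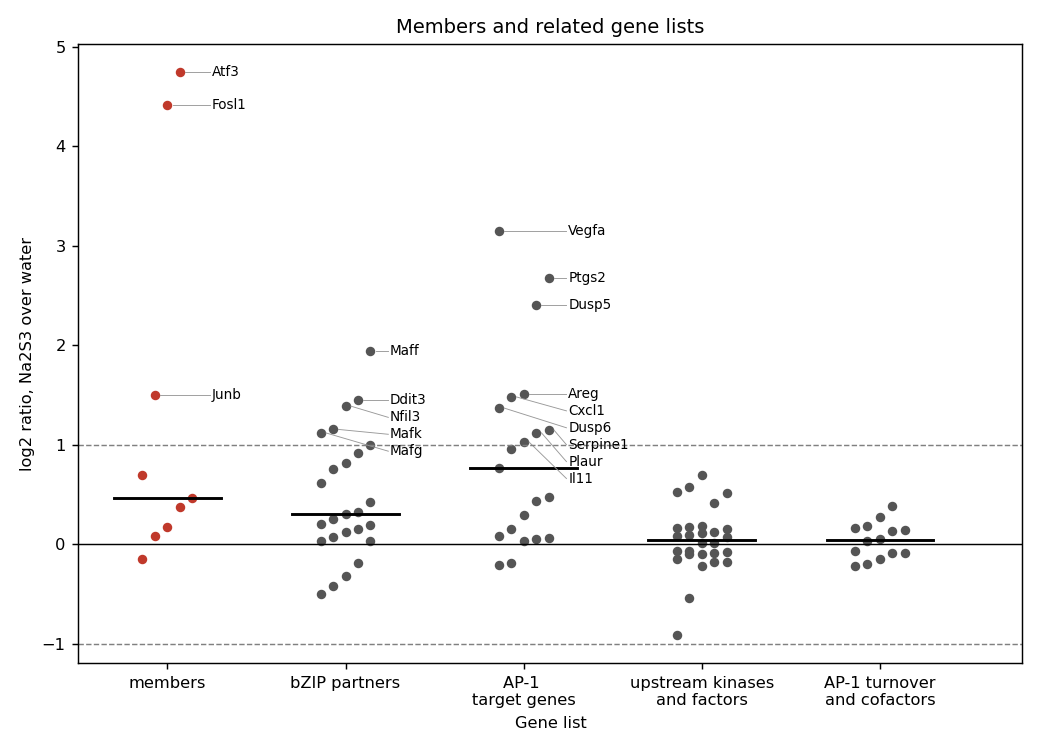
Log2 ratio of each measured gene (points) in the members and 4 related lists, with the median as a black bar, dashed lines at 2-fold and names for genes beyond 2-fold. The medians are 0.46 for the members, 0.31 for bZIP partners, 0.77 for AP-1 targets, 0.05 for upstream genes and 0.04 for turnover and cofactors.

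Motif matches in the promoters were counted on both strands, as letters only. The AP-1 motif TGANTCA was in 0 of the 6 member windows, and in 7.33% of all 33469 promoters of the same length. The CRE motif TGACGTCA was in Jund alone (1.83% of all promoters), beginning 221 bases before the start. The short CRE TGACGT, which also matches inside the full motif, was in Jund and Jdp2 (7.94%). The CARE motif TGATGNAAN was in Jdp2 alone (3.97%), 16 bases before the start. The CArG box, the site of serum response factor, was in 0 of the 6 (1.64%). The CARE and CArG motifs and the general promoter elements were added after the values were seen. Of the latter, TATAAA was in Junb and Fosb (14.2%), CCAAT in Junb and Jund (37.5%) and GGGCGG in Fosl1, Fosl2, Jund and Jdp2 (33.1%). A window without a match says only that these letters are not in it.

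Markers of the labelled cell type were mixed. Of 14 epithelial markers, 8 were measured on both arrays. In the water array Krt8 and Cdh1 were bright (15892 and 14703), and Cdx1 and Cldn3 gave 2086 and 429. Ocln, Krt19, Krt18 and Cldn1 were dimmer there (228, 215, 142 and 58.4). Epcam, Krt20, Vil1, Cdx2, Cldn7 and Lgr5 were not well above background on either array. Of 10 fibroblast markers, 7 were measured. Col1a1, Vim and Dcn among them were bright, whereas Thy1 and Acta2 were dim (128 and 65.8 in the water array). Pdgfra, Pdgfrb and Lum were not well above background on either array. Of 10 immune and endothelial markers, 5 were measured. In the water array the endothelial markers Vwf and Tek gave 2485 and 839, while Cd68, Cdh5 and Ptprc were dim (88.5, 42.6 and 29.2). Cd3e, Itgam, Pecam1 and Kdr were not well above background and Cd79a had no probe. None of these markers was 2-fold different (0 higher, 0 lower in each list). Summed over measured markers, the signal went from 33753 to 32817 for the epithelial, from 255895 to 239183 for the fibroblast and from 3484 to 2865 for the immune and endothelial list. These sums hold for the main scaling alone. With quantile normalization, Col3a1 moved from 0.03 to 0.27 and Col1a2 from -0.43 to -0.26. Under the 9 alternatives given below, the epithelial median ran from -0.02 to 0.06 and the fibroblast median from -0.27 to -0.04. The fibroblast median was thus negative under all 9, and so was the immune and endothelial median (-0.27 to -0.11). The sums were not recomputed under the alternatives, so their direction was not settled. In such bulk RNA, fewer cells of a type and less RNA per cell cannot be told apart, and the part of cell makeup in the members' ratios was not tested.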

How the data were processed

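Total RNA from IEC6 cells, 1 sample per group, was labelled with Cy3 and hybridised to Agilent single-colour arrays, per the labels' protocols. The deposited scanner files hold linear intensity values from Agilent Feature Extraction 10.7.1.1, per the file headers (the submitters' processing notes name 9.5.1.1), background-subtracted and detrended within each array. The authors' deposited table of values is linear intensity with equal quantiles in both columns, by a method not given in the sources used here, and served as an alternative.

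Outlier spots were left out (448 and 390 of 58717 non-control spots). A probe's spots were averaged as log2 signals, from which the 75th percentile of non-control probes on that array was subtracted (a shift of 0.21 between arrays). A probe was above background when more than 50% of its spots carried that flag (22560 and 22349 of 45598 probes). Members were matched by the file's gene name. Other genes were named through RefSeq accessions (21109 probes, GRCr8 table) or the file (14740 probes), and 9749 probes without a name were left out. The brightest probe above background on both arrays gave the gene's value. The spot error uses the 50 repeat probes (5 or more spots) nearest in signal on each array. The number of arrays, 1 per group, limits the precision, so calls rest on size alone, 2-fold in either direction. The scripts were tested on simulated data.

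Named are all members, in each list up to 4 genes farthest from a log2 ratio of 0, any listed gene with a bound of 2-fold or more on 1 array alone (0 found), and the genes next to each member past 2-fold. Other names were chosen after values were seen. Members and lists were chosen with earlier results of these data known. Promoter sequences are RefSeq's (GRCr8). Alternatives were normexp (limma 3.58.1, R 4.3.3, offset 50), quantile, spike-in and median scaling, loess (statsmodels 0.14.6), the deposited table, outlier spots kept, no filter on dim probes, and the median over probes.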

Additional observations from a re-analysis of the deposited data

How the results depend on the processing

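Under the 9 alternatives, the same 3 members (Atf3, Fosl1 and Junb) passed 2-fold upwards each time, 0 members passed it downwards, and no member changed sign by its gene value. Of the 82 member ratios recomputed, 73 moved by less than the member's spot error. The 9 that moved further were Atf3, Fosl1, Junb and Fos with normexp, Jund with loess, and Jun under quantile normalization, loess, the deposited table and the median over probes. The members' median ran from 0.42 to 0.51. With normexp, 61 genes passed 2-fold upwards, 3 of them bZIP partners, and 31 downwards. Without the filter on dim probes 1062 genes passed upwards and 1545 downwards, and the higher genes made up 40.7% of these, against 60.3% in the main setting. Scaling to the median of probes above background gave nearly the same values as the main setting, since about 49% of probes were above background. No paired analysis was possible because each group has 1 array. The values of Fosl1 and Junb rest on 1 spot per array, and Fosb, at 26.6, lies close to the lowest signal above background (18.3).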
